A study of Homo sapiens with 6 samples.

Results

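The genes described here encode enzymes and remodellers of chromatin. They are the KMT2 and SETD methyltransferases, the KDM demethylases, the KAT acetyltransferases, the HDAC deacetylases, the CHD remodellers and the ARID proteins. Members were taken by symbol pattern. No measured value enters the pattern, but it was chosen with earlier results of these data known. It gave 70 of 18249 genes in the expression table and 127 of 15940 m6A peaks, under 50 of the 8906 gene symbols with a peak. The symbols MLL, MLL2, MLL3, MLL4 and MLL5 of the peak list are older names of KMT2A, KMT2D, KMT2C, KMT2B and KMT2E, matched through RefSeq with the chromosome checked. SETD8 of the peak list is KMT5A in the expression table, so its 2 peaks are counted and it is not among the 70.

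All 6 samples are TE-10, a human cell line from an esophageal squamous carcinoma, grown in serum. RNA-seq compared 1 control library with normal METTL3 expression with 2 METTL3 knockdown libraries, knockdown 1 and knockdown 2, each from cells given short hairpin RNA for stable knockdown. Their titles number the hairpins (sh1 and sh2), so differences between these 2 libraries may include differences between hairpins, and the test treats both as replicates of 1 condition. The labels do not say whether the control carried a hairpin of its own or whether a knockdown line is 1 clone. Methylated RNA immunoprecipitation used cells with normal METTL3, with 1 input and 2 libraries enriched by different antibodies to N6-methyladenosine (m6A), and gave 1 peak list. No label describes the libraries as separate cultures, so p-values for knockdown reflect only how these libraries differ among themselves.

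METTL3 is the methyltransferase that, with METTL14, places m6A on mRNA, and the mark is read by proteins that alter splicing, translation and decay of the marked transcript. m6A sites are known to lie mostly in long internal exons and around stop codons. Chromatin enzymes add or remove acetyl and methyl groups on histone tails, and CHD and SWI/SNF remodellers use ATP to move nucleosomes. KMT2D and several of its relatives are often mutated in squamous carcinomas.

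m6A peaks in these genes lay mostly in coding exons. Of the 127 peaks, 82 were in the authors' class for coding exons, 64.6% (95% Wilson interval 55.9 to 72.3), against 34.1% of the whole list. The 3' UTR held 17 peaks (13.4% against 21.5%), introns 11 (8.66% against 23.5%), the 5' UTR 9 (7.09% against 11.6%), the upstream class 8 (6.3% against 7.84%) and the downstream class 0 (1.59% of the list). The interval covers counting error only, and peaks of 1 gene are not independent. The whole list includes the members' own peaks, and no test of the difference was made.

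**Figure D1:**
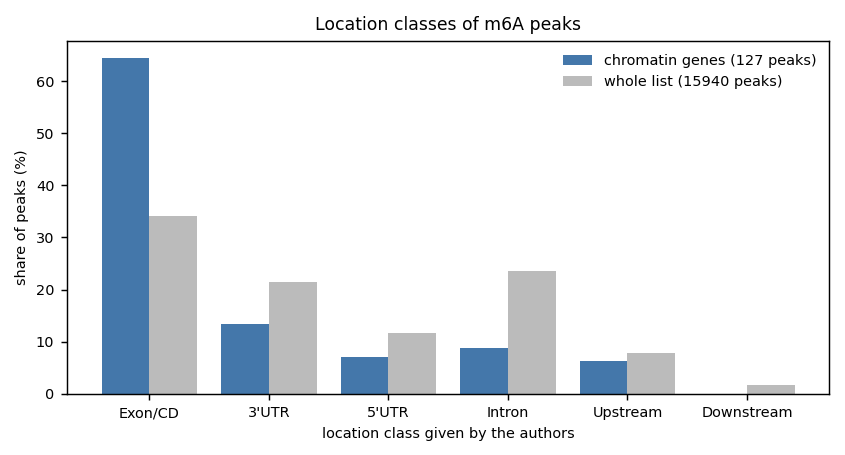
Share of m6A peaks (%, vertical axis) in each location class the authors gave (horizontal axis), for the 127 peaks of chromatin genes (blue) and the whole list of 15940 (grey). The coding exon class holds 64.6% of the chromatin gene peaks and 34.1% of the list.

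Marked genes were also frequent, and many carried several peaks. Of the 67 members whose expression value reached 1 in any library, 46 had a peak in an exon or UTR by the symbol pattern. With older symbols matched, as was done for all genes, it was 47 (70.1%, 95% Wilson interval 58.3 to 79.8), beside 45.9% of the 12375 genes that passed the same filter. At least 3 such peaks were found in 14 of the 67 members (20.9%, interval 12.9 to 32.1), beside 5.93% of all genes tested. Per symbol with a peak, members had 2.54 peaks and the whole list 1.79, and 18 of 50 symbols (36%) had 3 or more, against 18.9% in the list. These genes are long. The median genomic span in RefSeq (GRCh38.p14, introns included) was 68.4 kb for the tested members and 29.6 kb for all tested genes with a span. The median span was 80.5 kb for the 47 members with an exon or UTR peak and 48.9 kb for the 20 without, while over all genes tested it was 30.0 kb with such a peak and 29.2 kb without. Across the 67 members the number of exon or UTR peaks and the span had a Spearman correlation of 0.218 and a Pearson correlation of 0.004, given as a description over genes of the same libraries. Exon length was not analysed here, and its part in the counts of peaks was not tested.

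**Figure D2:**
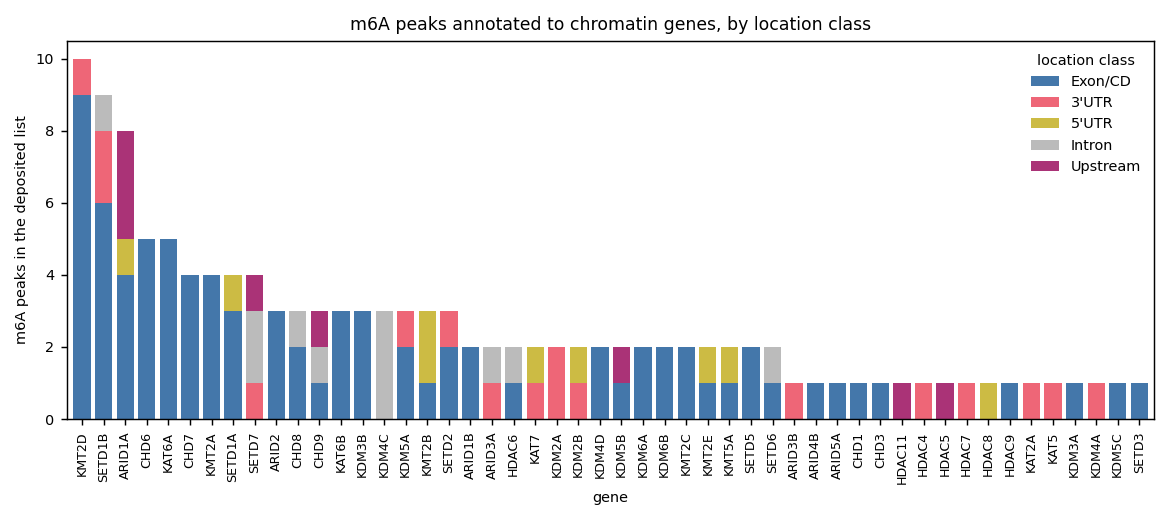
Number of m6A peaks (vertical axis) for each chromatin gene with at least 1 peak (horizontal axis), coloured by the authors' location class. KMT2D has 10 peaks, SETD1B 9 and ARID1A 8, and most genes with 4 or more peaks carry them in coding exons.

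KMT2D, a methyltransferase that places a single methyl group on histone H3 at enhancers, had the most peaks of all members. It had 10 peaks covering 4530 bases, 9 in coding exons and 1 in the 3' UTR, and only 8 of the 8906 symbols had more. Its coding exon peaks lay between 3.7 and 28.63 kb from the annotated start, measured along the genome with introns. Several lay in neighbouring pairs, such as chr12:49431376-49432169 (794 bases) and chr12:49432263-49432595 (333 bases), 93 bases apart. Another pair, chr12:49420211-49420740 and chr12:49420857-49421198, was 116 bases apart. The peak in the 3' UTR was at chr12:49415145-49415638. Coordinates are as the file gives them. Its build is not hg38 as named in the submitters' processing notes: of 119 member peaks outside the upstream class, 18 lie within their gene's span in GRCh38.p14.

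The other KMT2 genes had fewer peaks. All 5 of the family had at least 1 in an exon or UTR, beside 45.9% of all genes tested. KMT2A, the founding member, whose gene is rearranged in leukaemia, had 4 peaks, all in coding exons, from 66.09 to 85.67 kb. KMT2C, the partner paralog of KMT2D, had 2 coding exon peaks, at 259.12 and 287.36 kb. KMT2B, which methylates promoters, had a coding exon peak of 1051 bases and 2 peaks classed as 5' UTR. Those lay 2.14 and 3.46 kb from the annotated start. KMT2E, a SET-domain protein without clear methyltransferase activity, had 1 peak at its start (0.07 kb) and 1 coding exon peak at 93.36 kb.

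SETD1B and SETD1A, the catalytic subunits of the SET1 complexes that trimethylate histone H3 at promoters, had 9 and 4 peaks. In SETD1B, 6 lay in coding exons, 2 in the 3' UTR and 1 in an intron, covering 3666 bases, with the first pair 137 bases apart and another pair 134 bases apart. In SETD1A, 3 lay in coding exons and a peak of 792 bases spanned the annotated start. SETD2, the enzyme of histone H3 lysine 36 trimethylation, had 3 peaks. SETD7, which methylates histone H3 and other proteins, had 4 peaks, of which 2 lay in introns, 1 upstream and 1 in the 3' UTR. In all, 7 of 9 SETD members had a peak in an exon or UTR, beside 45.9% of all genes tested. SETD4 and SETD9 had no peak by the symbol pattern. A peak listed as C5orf35, an older name of SETD9, lay outside exons and UTRs.

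Among SWI/SNF subunits, ARID1A had 8 peaks covering 4704 bases. Its coding exon peak at chr1:27105620-27107353, 83.96 kb from the start, was 1734 bases wide, the widest of all member peaks, whose median was 342 bases (316 in the whole list). A further coding exon peak lay at 35.26 kb. The remaining peaks lay around the start, with 3 in the upstream class (centres at -3.61, -2.82 and -0.48 kb), 1 in the 5' UTR and 2 coding exon peaks within 1.06 kb. ARID1B, which replaces ARID1A in the same complex, had 2 peaks, both in coding exons within 0.77 kb of the start. ARID2, the subunit of the related PBAF complex, had 3 coding exon peaks between 120.34 and 122.63 kb. ARID5A, an RNA-binding member, had a single peak of 1289 bases. ARID3A had 2 peaks, ARID3B and ARID4B 1 each, and ARID3C, ARID4A and ARID5B none.

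**Figure D3:**
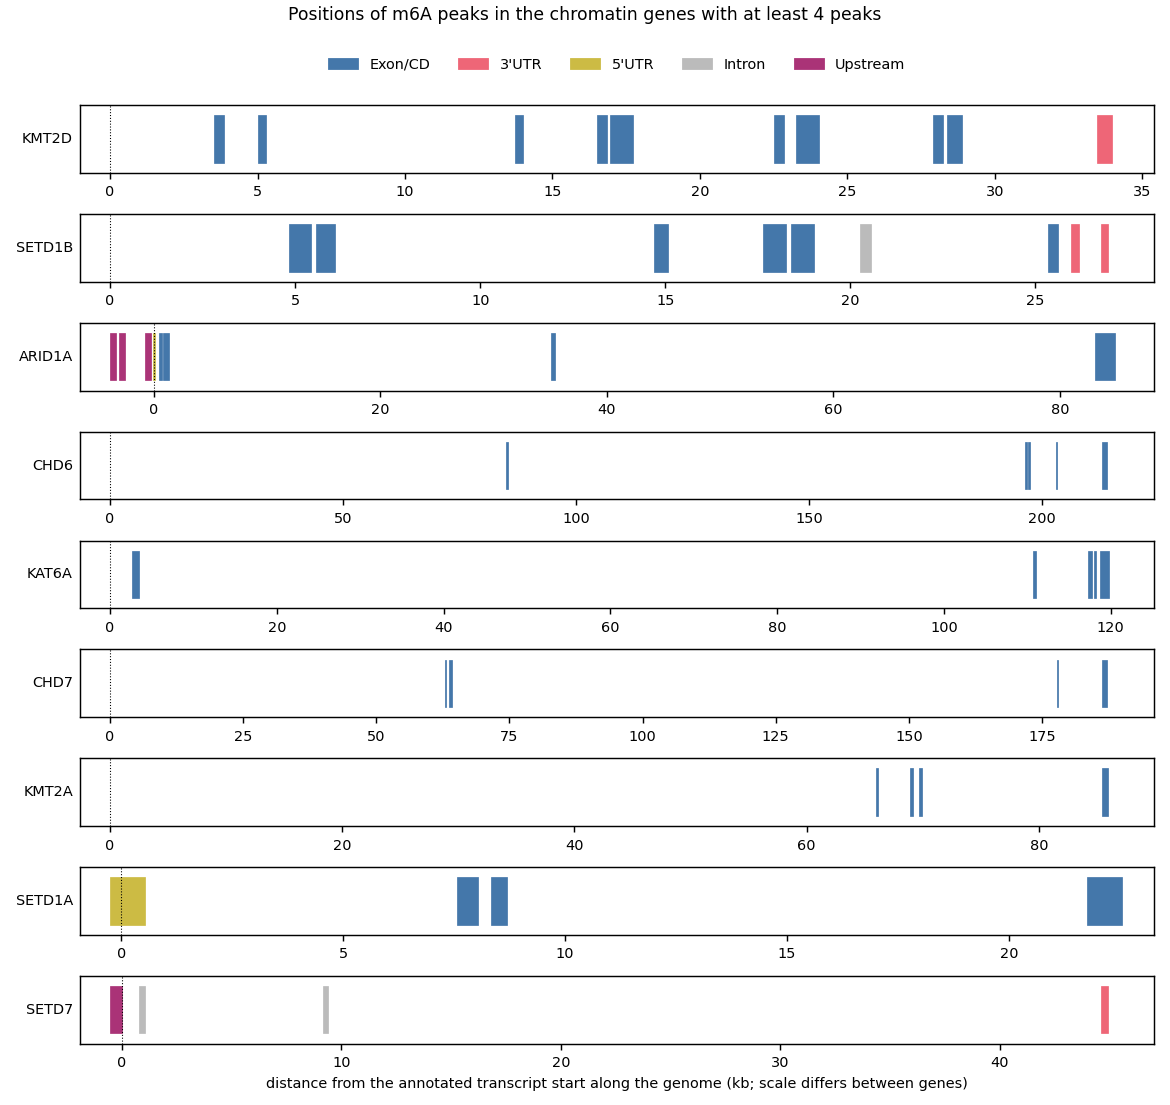
Positions of m6A peaks in the 9 chromatin genes with at least 4 peaks, as distance in kb from the annotated transcript start along the genome (horizontal axis, scaled per gene; dotted line, start). Blocks are drawn to scale with a thin outline and coloured by location class. The 10 peaks of KMT2D reach from 3.7 to 33.72 kb, and those of KAT6A and CHD6 lie mostly near the far end.

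Among the remodellers, CHD6 had 5 peaks and CHD7, the gene of CHARGE syndrome, had 4, all in coding exons. CHD8 and CHD9 had 3 each, and CHD1 and CHD3 had 1 each. CHD1L, CHD2, CHD4 and CHD5 had none, CHD4 being the main ATPase of the NuRD complex. Among acetyltransferases, the paralogs KAT6A and KAT6B, which acetylate histone H3, had 5 and 3 peaks, all in coding exons. KAT7 had 2 peaks, KAT2A and KAT5 1 each in the 3' UTR, and KAT2B and KAT8 none. KAT14 had none by the symbol pattern. CSRP2BP, an older name that RefSeq gives to both KAT14 and its neighbour PET117, has 4 peaks in exons or UTRs, which were assigned to neither gene.

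Of the 17 demethylases, 12 had a peak of any class by the symbol pattern. In an exon or UTR it was 11. With older symbols matched it was 12 of the 16 tested, beside 45.9% of all genes tested, counted in the same way. KDM3B, an H3K9 demethylase, had 3 coding exon peaks. KDM5A, an H3K4 demethylase, had 2 in coding exons and 1 in the 3' UTR. KDM4C, of the same H3K9 demethylase class as KDM4D, differed in kind, with 3 peaks that were all intronic, between 41.13 and 50.62 kb. KDM2A, KDM2B, KDM4D, KDM5B, KDM6A and KDM6B had 2 each, and KDM3A, KDM4A and KDM5C 1 each. Both KDM2A peaks were classed as 3' UTR, although 1 was 0.12 kb from the annotated start. KDM1A, KDM1B and KDM4B had none. KDM7A and KDM8 had none by the pattern, and 1 and 2 peaks in exons or UTRs under the older names JHDM1D and JMJD5.

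Of the 11 deacetylases 7 had a peak, with 8 peaks in all. A peak in an exon or UTR was found in 5 of the 11, a share near the 45.9% of all genes tested. HDAC1 and HDAC2, the catalytic pair of the Sin3, NuRD and CoREST corepressor complexes, had none, nor had HDAC3, the enzyme of the NCoR complex, or HDAC10. HDAC6, a cytoplasmic tubulin deacetylase, had 2, and HDAC4, HDAC7 and HDAC9 of class IIa had 1 each. The single peaks of HDAC5 and HDAC11 lay in the upstream class, and that of HDAC8 in the 5' UTR at 0.28 kb.

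Upstream peaks reached into the 250 bases before the annotated start in 4 members. Their centres were at -213 bases from the start in HDAC11, -250 in SETD7, -269 in HDAC5 and -482 in ARID1A. Their edges, by the authors' starts, were -320 and -106 in HDAC11, -528 and 28 in SETD7, -412 and -126 in HDAC5, and -753 and -211 in ARID1A. In HDAC11, HDAC5 and ARID1A the peak thus reached only part of those 250 bases. RefSeq windows (GRCh38.p14) were found for 60 of the 70 members, and for HDAC11, SETD7 and ARID1A of these 4. The sequences are shown because, in the peak list's own build, an RNA mark was called over DNA annotated as lying before the transcript. They were placed by the RefSeq start in GRCh38.p14, and whether they hold the DNA under the peaks was not tested. They run 5' to 3' on the gene's strand and end at the base before the RefSeq start. Capitals mark GGACT, a common form of the m6A consensus.
HDAC11, chr3:13480056-13480305, plus strand: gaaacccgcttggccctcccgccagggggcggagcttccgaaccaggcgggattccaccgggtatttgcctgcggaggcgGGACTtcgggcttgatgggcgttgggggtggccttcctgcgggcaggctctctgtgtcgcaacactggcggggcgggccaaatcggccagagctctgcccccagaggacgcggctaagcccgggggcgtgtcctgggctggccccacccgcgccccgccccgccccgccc
SETD7, chr4:139556220-139556469, minus strand: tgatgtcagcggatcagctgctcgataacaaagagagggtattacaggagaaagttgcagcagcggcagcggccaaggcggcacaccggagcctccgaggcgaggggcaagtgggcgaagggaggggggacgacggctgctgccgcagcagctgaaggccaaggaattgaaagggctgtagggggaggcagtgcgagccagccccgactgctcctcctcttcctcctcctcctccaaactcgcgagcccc
ARID1A, chr1:26695765-26696014, plus strand: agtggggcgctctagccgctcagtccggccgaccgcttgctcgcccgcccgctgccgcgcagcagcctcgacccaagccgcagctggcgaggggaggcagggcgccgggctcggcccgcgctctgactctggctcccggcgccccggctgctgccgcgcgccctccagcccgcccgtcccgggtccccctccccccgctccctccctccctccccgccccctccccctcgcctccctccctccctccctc

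The HDAC11 window held GGACT once on the transcript strand, the SETD7 window on neither strand, and the ARID1A window once on the other strand. Across RefSeq windows of the same length, 21.1% of 27305 symbols held GGACT on the transcript strand and 21.6% on the other. Among the 60 members these shares were 36.7% and 21.7%, with a median GC content of 67.0% against 58.0% for all symbols. The part of base composition was not tested. As the peaks are in another build, whether the authors' starts are those of RefSeq was not tested. A match is a description of these letters, not a site.

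On knockdown, METTL3 itself was at 20.81, 8.35 and 4.99, so both knockdown libraries lay below the control. Here and below, sets of 3 values are in the order control, knockdown 1, knockdown 2. Levels are the deposited expression values, whose unit is not stated, so levels are compared between libraries for 1 gene. The choice of which genes to name and the median control values of gene groups are the exceptions, and they carry that limit. Depth is unknown, so no counting interval is given. Log2 changes are differences of log2(value + 1), which understate the change of low genes. The libraries do not stand alike: CDKN2A, near 0 in the control and knockdown 1, was at 144.68 in knockdown 2. CDKN2A belongs to a list of 7 markers of another cell line, chosen with earlier results of these data known, whose sums were 87.17, 88.46 and 534.29. Of these markers, HOXB9 was at 0.03, 0.35 and 53.12, IRS4 at 0.05, 0.04 and 23.56, and VIM at 87.02, 88.05 and 311.17. CDKN2A, HOXB9 and IRS4 passed the filter of 1 through knockdown 2 alone, so their being higher there was fixed by the filter. VIM passed it in all libraries and was at least 2-fold higher in knockdown 2. PAX2 (0.01, 0.00 and 0.78), WT1 (0.02, 0.02 and 0.69) and LHX1 (0.00, 0.00 and 0.29) were under 1 in all libraries, and each was highest in knockdown 2. On the log2(value + 1) scale 646 of the 12375 genes (5.22%) differed at least 2-fold between the knockdown libraries, and 0 of the members. In deposited values ARID3B (3.45 and 7.50) and KDM4D (0.46 and 1.28) differed by more than that. The share of all genes includes genes that passed the filter through 1 library alone, such as CDKN2A. All 12 squamous markers were present and summed to 4942.4, 4747.09 and 3076.33. Of 6 fibroblast markers 5 were under 1 in all libraries, and of 5 leukocyte markers 4, with CD68, also a lysosomal protein of other cells, at 18.81, 7.88 and 9.93. The part of these markers in the members' values, among them those of HDAC9, KDM5C and ARID3B in knockdown 2, was not tested. In such bulk libraries fewer cells of a type and less RNA per cell cannot be told apart.

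No chromatin gene passed the test for knockdown. In limma 0 of the 67 members had an adjusted p under 0.05, beside 0% of the 12375 genes tested, and unadjusted p was under 0.05 for 0 members, against 162 (1.31%) of all genes. With 1 control, each gene's own error comes from how the 2 knockdown libraries differ, on 1 residual degree of freedom. This error is then moderated by limma toward the variance trend of all genes tested. The lack of calls therefore does not show that levels are equal. The members lay close to the control in both libraries. In knockdown 1 all 67 differed by less than 0.5 on the log2 scale, as did 93.2% of all genes. In knockdown 2 it was 62 of 67 (92.5%) against 81.8%. The median control value was 5.89 for the members and 9.85 for all genes tested, and log2(value + 1) shrinks changes most in low genes. The part of level in this closeness was not tested. Differences of at least 2-fold are counted on the log2(value + 1) scale. In knockdown 1 they were found in 0 members, where 0.242% of all genes were higher and 0.404% lower by that much. In knockdown 2, 0 members were that much higher and 1 was lower, where 3.64% of all genes were higher and 0.978% lower. In deposited values KDM4D (0.42 in the control, 1.28 in knockdown 2) was higher by more than that. Genes that passed the filter through 1 library alone were highest there by the filter, and their part in these shares was not counted. The members' median changes were -0.04 (knockdown 1) and 0.04 (knockdown 2), and those of all genes -0.01 and 0.00. ARID3C, CHD5 and KDM7A, under 1 in every library, were not tested, and KDM4D passed the filter through knockdown 2 alone.

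**Figure D4:**
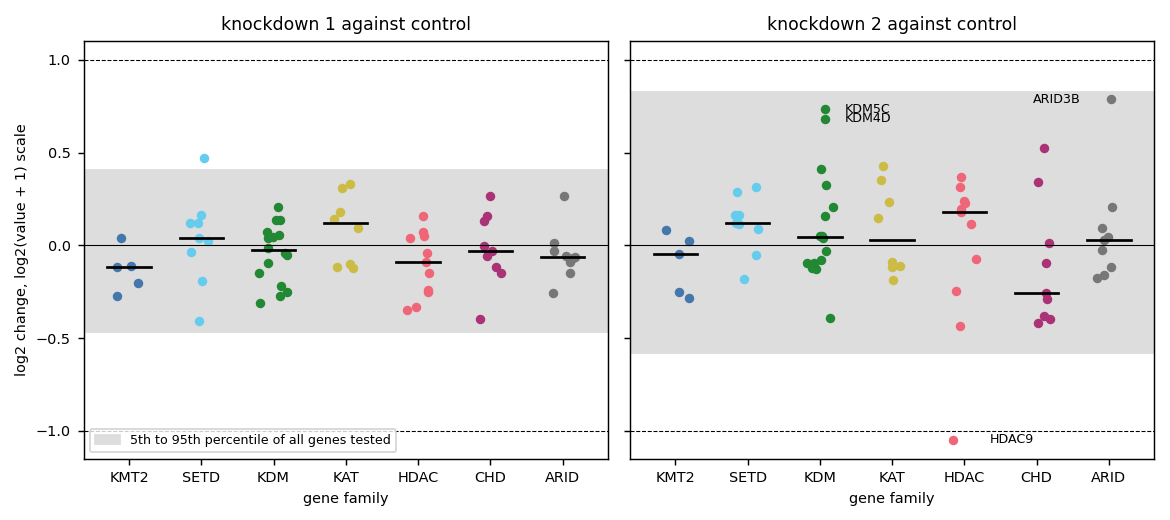
Log2 change against the control (vertical axis, log2(value + 1) scale) of the 67 tested members by family (horizontal axis), in knockdown 1 (left) and knockdown 2 (right). Black bars are family medians, the grey band holds the 5th to 95th percentile of all 12375 genes and dashed lines mark 2-fold; HDAC9 in knockdown 2 is the only member beyond a dashed line.

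HDAC9, a class IIa deacetylase, was the member that passed 2-fold on the log2(value + 1) scale. Its value was 8.81, 7.31 and 3.75, with log2 changes of -0.24 and -1.05. Both knockdown libraries were below the control and differed widely from each other, and the mean change was -0.64 (SE 0.378, limma adjusted p = 1.00). The lower value stands in the library with CDKN2A at 144.68.

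The KMT2 methyltransferases had small differences from the control. KMT2D, with its 10 peaks, was at 2.94, 2.65 and 2.31. KMT2E was at 6.67, 5.35 and 5.30, and its log2 change of -0.28 (SE 0.25) was the largest of the family. Both genes were below the control in both libraries, and the knockdown values of KMT2E lay close together. KMT2A was at 1.23, 1.06 and 1.36, KMT2B at 7.66, 7.90 and 7.79, and KMT2C at 1.66, 1.31 and 1.58. The log2 changes in either library were -0.11 and 0.08 for KMT2A and 0.04 and 0.02 for KMT2B.

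Among SETD genes, SETD9, a less studied member, was at 4.18, 6.17 and 5.33. Both libraries were above the control, with a log2 change of 0.38 (SE 0.263, limma adjusted p = 1.00). SETD1B was at 3.51, 4.05 and 3.35 and SETD1A at 10.17, 10.47 and 12.87, with no common direction in SETD1B. SETD3, which methylates a histidine of actin, was at 63.40, 64.37 and 55.76, and SETD5 at 11.24, 12.30 and 12.70. SETD7 was below the control in knockdown 1 alone (11.01, 8.04 and 11.75). The other 3 members, SETD2, SETD4 and SETD6, had changes between -0.19 and 0.16 in either library. KMT5A, the enzyme of histone H4 lysine 20 monomethylation listed among peaks as SETD8, was at 40.87, 54.99 and 46.09.

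Of the demethylases, KDM5C, an X-linked H3K4 demethylase, had the largest positive change among members with a mean value of at least 2. It was at 7.94, 8.23 and 13.86, so only knockdown 2 stood apart, with CDKN2A at 144.68 there. Its log2 change was 0.05 in knockdown 1 and 0.73 in knockdown 2, and the mean was 0.39 (SE 0.339, limma adjusted p = 1.00). KDM4D was also highest in knockdown 2, at a low level (0.42, 0.46 and 1.28). It passed the filter of 1 through that library alone, so its being higher there was fixed by the filter. KDM1A, the flavin-dependent demethylase of CoREST, was at 52.01, 42.81 and 48.55, below the control in both. KDM2A, which binds CpG islands, was at 23.35, 24.57 and 17.56, and KDM2B, its Polycomb-linked paralog, at 7.04, 8.29 and 8.29. KDM3B was at 12.78, 11.88 and 11.67, and KDM4C at 1.33, 1.31 and 1.18. KDM6A and KDM6B, the H3K27 demethylases, were at 3.18, 2.59 and 3.66 and at 5.68, 4.38 and 5.33. The tested KDM members ranged from -0.31 to 0.21 in knockdown 1 and from -0.39 to 0.73 in knockdown 2.

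Among the acetyltransferases, KAT14, a subunit of the ATAC complex, was at 2.81, 3.72 and 4.13. The change was 0.37 (SE 0.287, limma adjusted p = 1.00), with both libraries above the control. KAT2B, a catalytic subunit of SAGA-type and ATAC complexes, was at 2.56, 3.48 and 3.54, and its paralog KAT2A at 28.03, 31.02 and 25.81. KAT7, which acetylates histones at replication origins, was at 11.87, 13.56 and 14.11, above the control in both. KAT6A and KAT6B, with 5 and 3 peaks, were at 4.17, 3.77 and 3.54 and at 1.42, 1.26 and 1.24, below the control in both. KAT8, the H4K16 acetyltransferase, was at 23.72, 21.73 and 26.34, and KAT5, of the NuA4 complex, at 20.88, 22.36 and 19.59.

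The class I deacetylases HDAC1, HDAC2 and HDAC3 had values above the control in both libraries, by small steps. HDAC1 was at 78.95, 81.93 and 92.71, HDAC2 at 38.37, 42.94 and 49.84, and HDAC3 at 50.21, 52.86 and 57.61. In each the larger value was that of knockdown 2, and the mean log2 changes were 0.14, 0.26 and 0.13, none past the test. HDAC8, the remaining class I enzyme, went to either side (17.01, 13.13 and 20.22). HDAC7, of class IIa, was at 22.41, 20.09 and 16.35, a log2 change of -0.29 (SE 0.255, limma adjusted p = 1.00). HDAC6 was at 4.73, 4.38 and 6.13, HDAC5 at 8.72, 6.72 and 10.01, HDAC11 at 3.97, 3.17 and 4.39 and HDAC10 at 18.60, 19.18 and 15.54. HDAC4 was at 1.25, 1.19 and 1.14.

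**Figure D5:**
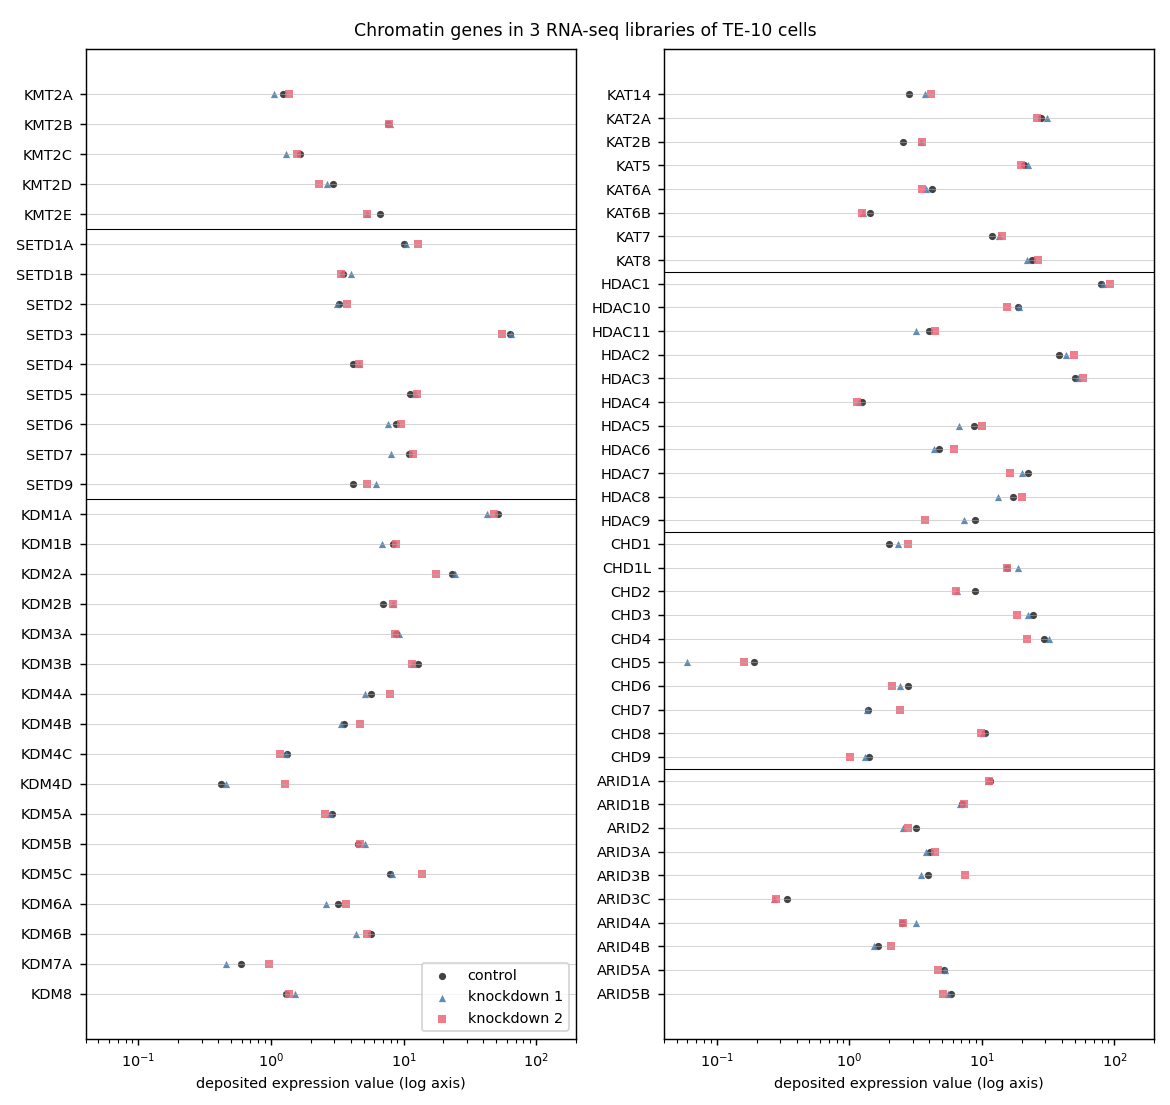
Deposited expression value (horizontal log axis) of all 70 chromatin genes (vertical axis, by family) in the control (circles), knockdown 1 (triangles) and knockdown 2 (squares), 1 library each. Symbols of most genes overlap or lie side by side, while HDAC9, KDM5C, ARID3B, KDM4D and CHD7 are examples with knockdown 2 apart from both other libraries. KDM4D reached 1 in knockdown 2 alone.

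CHD2, a remodeller of active chromatin, was below the control by a similar amount in both libraries. Its values were 8.85, 6.48 and 6.37, with a log2 change of -0.41 (SE 0.241, unadjusted p = 0.142, limma adjusted p = 1.00). It has no m6A peak in the list. CHD4 was at 29.21, 32.07 and 21.93 and its paralog CHD3 at 24.25, 22.27 and 18.37, both lowest in knockdown 2. CHD6 was at 2.76, 2.39 and 2.08 and CHD7 at 1.38, 1.37 and 2.42. Across the 9 tested CHD genes log2 changes ran from -0.40 to 0.26 (median -0.03) in knockdown 1. In knockdown 2, where CDKN2A was at 144.68, they ran from -0.42 to 0.52 (median -0.26).

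Among ARID genes, ARID1A was at 11.59, 11.11 and 11.37, and ARID1B at 7.04, 6.87 and 7.30. Both subunits lay within 0.06 of the control on the log2 scale in each library. ARID2 was at 3.20, 2.52 and 2.76, below the control in both. ARID3B, an AT-rich DNA-binding protein, was at 3.93, 3.45 and 7.50, so that knockdown 2 alone was high, by 0.79 on the log2 scale. The other 5 tested members, ARID3A, ARID4A, ARID4B, ARID5A and ARID5B, had changes between -0.18 and 0.26 in either library.

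Peak content and change on knockdown are set side by side as a description. The 47 tested members with an exon or UTR peak had median log2 changes of -0.06 and -0.03 (knockdown 1, knockdown 2), and the 20 without 0.05 and 0.12. Over all genes tested the medians were -0.02 and -0.03 for 5680 genes with such a peak and -0.01 and 0.03 for 6695 without. The 14 members with at least 3 peaks had medians of -0.08 in both libraries. The groups were not alike in level, with a median control value of 3.23 for members with at least 3 peaks, 5.68 with any and 8.56 without, and log2(value + 1) shrinks changes most in low genes. Both comparisons share the control, and no test of the difference was made.

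Partners of these enzymes were taken from 9 lists. Of 153 tested partner genes that are not members, 0 passed limma's adjusted threshold and 1 had an unadjusted p under 0.05. That gene was GPS2, a subunit of the NCoR-HDAC3 complex, at 43.88, 73.30 and 76.04 (log2 change 0.75, SE 0.244, unadjusted p = 0.0218, limma adjusted p = 1.00). On the log2(value + 1) scale 1 partner gene was at least 2-fold from the control, SMARCD3, a BAF subunit, in knockdown 2 (2.23, 4.10 and 14.05). CBX2, a Polycomb subunit, lay just short of it there, at 0.99 on that scale (3.76, 4.29 and 8.44), and no other pseudocount was tried for partner genes. These values too are from the library with CDKN2A at 144.68. SMARCD3 and CBX2 were chosen after their values were seen. GPS2 was singled out here for its p-value, and it is also the gene with the highest value in the Sin3 and CoREST list. Medians in knockdown 1 and knockdown 2 were 0.01 and 0.11 for the COMPASS core (14 tested), 0.06 and 0.15 for Polycomb (27), 0.04 and 0.06 for BAF and PBAF (22) and 0.11 and 0.13 for NuRD (10). For Sin3 and CoREST (19) they were 0.12 and -0.09, for other acetyltransferases and partners (24) 0.03 and -0.02, and for other methyltransferases (20) 0.05 and 0.11. ISWI and INO80 (15) had -0.01 and 0.15 and sirtuins (5) 0.02 and 0.24. Of the genes with the highest value in each list, DPY30 of the COMPASS core was at 113.62, 121.17 and 106.78, RBBP7 of Polycomb and NuRD at 39.74, 42.37 and 74.46, BCL7C of BAF at 186.80, 235.56 and 163.71, and CDK2AP1 of NuRD at 374.58, 444.26 and 288.64. TADA3, an acetyltransferase partner, was at 52.14, 61.69 and 48.47, PRMT1, an arginine methyltransferase, at 121.26, 149.20 and 133.48, RUVBL2 of INO80 at 70.87, 81.29 and 70.08, and SIRT2, a cytoplasmic sirtuin, at 40.08, 39.73 and 42.20. None of these moved past the test.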

How the data were processed

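Polyadenylated RNA of TE-10 cells was sequenced from stranded libraries, per the labels' protocols. TopHat2 and HTSeq are named for all samples, MACS2 for the immunoprecipitation and hg38 as build, per the submitters' processing notes; for versions, parameters and pooling nothing is given in the sources used. The deposited expression table holds a signal per gene with 2 decimals and no stated unit, and the deposited peak list has positions, classes and distances without a score. Error comes from the 2 knockdown libraries, whose spread is taken to hold for the 1 control too, and is moderated by limma across all genes tested. Genes reaching 1 in any library were compared on log2(value + 1) by limma 3.58.1 (R 4.3.3). The fit used a mean-variance trend and Benjamini-Hochberg adjustment at 0.05 over 12375 genes. The procedure was tested on simulated data with less noise than the spread between these knockdown libraries (SD of their log2 difference 0.505 over all genes). That run does not show what could be called here. Peaks were joined by symbol with RefSeq, using Python 3.11.15, pandas 2.3.3, numpy 2.4.6 and matplotlib 3.10.9.

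Members, lists, markers and naming rule were chosen with earlier results of these data known. Named were all KMT2 genes; in each other family the 2 with the highest mean value and the 2 with the most peaks; genes 2-fold from the control in both knockdowns (0); the 3 largest changes each way with a mean of at least 2; and the highest gene of each partner list. Other members are given so that each is accounted for. Alternatives covered scaling, filter, pseudocount, trend, left-out libraries and peak matching.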

Additional observations from a re-analysis of the deposited data

How the results depend on the processing

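No paired analysis was possible because the control group has 1 library. No chromatin gene passed limma under any other setting of scaling, filter, pseudocount or trend. With a pseudocount of 0.1, 2 members in place of 1 passed 2-fold in knockdown 2, KDM4D joining HDAC9. KDM4D passed the filter of 1 through knockdown 2 alone, so its being higher there was fixed by the filter. Leaving out a knockdown library gives values with no test. On the log2(value + 1) scale the count of members at least 2-fold from the control in the remaining library ranged from 0 to 1. The members' median log2 change ranged from -0.039 to 0.0384, against -0.0163 with both. With libraries scaled to equal sums, the changes of ARID1B, KAT2A and KAT8 took the other sign, at -0.0216, -0.0188 and -0.0198, and members split into 27 higher and 40 lower in place of 33 and 34. The other signs of the 34 members named by the rule held under every scaling, filter and pseudocount that kept them. Leaving out a library changed the sign of some. Without knockdown 2, CHD4 was at 0.1305 (-0.1336 with both), KDM2A at 0.0705 (-0.1606) and HDAC6 at -0.0909 (0.1122). Members with at least 2 peaks in exons or UTRs were 25, in place of 46 with at least 1; older symbols gave 48, and 131 peaks in place of 127. No peaks of members overlapped. Unknown depth and the single control limit what differences could be seen.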
